A study of Mus musculus with 43 samples.

Results

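RUNX2 overexpression in brown adipocytes was examined in 6 of the 43 libraries of the series: 3 libraries labelled OE Runx2 and 3 control libraries labelled OEV, taken from the overexpression count table by their column names. All were cultures of a mouse cell line labelled BAT, given the cell type mature brown adipocytes and the treatment brown adipocyte differentiation. The OE Runx2 genotype is labelled as over expression of Runx2 and the OEV genotype as WT. The series' design text states that the factor was overexpressed in brown preadipocytes, which were then induced to differentiate. Cultures labelled OE Runx1 (3 libraries) share the table and the controls. Separate tables of the same line, each with libraries of its own, held cultures labelled Full length Runx2 and delete Runx2 IDR (2 libraries each), and Knock out Runx2 and Knock out control (3 libraries each). The vector, the promoter that drove it, the dose and the number of clones are not given in the sources used here. The labels do not say whether libraries of a group came from separate cultures, so the p-values measure only the spread between these libraries.

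RUNX2 is a transcription factor of the Runt family, best known as the master regulator of osteoblast differentiation. It binds DNA as a dimer with CBFB and recruits coactivators or corepressors of the TLE and histone deacetylase families. Brown adipocytes burn fatty acids and glucose in dense mitochondria, and the uncoupling protein UCP1 turns the proton gradient into heat. Osteoblasts and adipocytes can both arise from mesenchymal progenitors.

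The 9 libraries of the table held 32401897 to 50447009 counts. Levels of single genes are given as CPM, a gene's count relative to its library's total, scaled by the trimmed mean of M-values (TMM), and differences as log2 fold changes with a standard error (SE) from edgeR's quasi-likelihood (QL) fit over all 9 libraries. Sums over cell type markers are CPM without the TMM scaling. The TMM factors were 0.92 to 0.93 in OEV and 1.05 to 1.08 in OE Runx2, so scaling would raise the OEV sums and lower those of OE Runx2. A gene was called when its Benjamini-Hochberg adjusted p over all tested genes was below 0.05. Unless stated otherwise, every named gene said to have risen or fallen passed this test and had no overlap between the 3 values of each group. Counts of genes higher or lower, in a list or over all genes, rest on the test alone, and some of the genes counted overlapped. In RNA from whole cultures, a lower share of cells of one type and less RNA per cell cannot be told apart.

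The controls differed among themselves before any comparison was made. The summed level of 11 cardiac muscle markers was 94.3, 370 and 1.45 CPM in OEV replicates 1, 2 and 3, against 3.52, 3.19 and 2.36 CPM in the OE Runx2 libraries. OE Runx1 replicate 3 carried 1578 CPM. OEV replicate 3 was the only control without this signal. It was also the control nearest to the OE Runx2 libraries for 1315 of the 2513 genes called at least 2-fold higher and for 776 of the 1664 called at least 2-fold lower. What rests on OEV replicates 1 and 2 was measured by repeating the fit with OEV replicate 3 as the only control.

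Both groups carried adipocyte transcripts. Summed over 8 mature adipocyte markers, the level was 12460 to 13420 CPM in OEV and 9958 to 10730 CPM in OE Runx2, so adipocyte transcripts were abundant in both. Gene by gene, 6 of these 8 were called lower with RUNX2 and 0 higher (median log2 -1.01). Over 7 brown adipocyte markers the sum was 507 to 574 CPM against 51.8 to 61.4 CPM. Over 8 fibroblast or preadipocyte markers it was 442 to 999 CPM against 7182 to 7738 CPM, and 2 collagen genes, Col1a1 and Col3a1, made up most of it. Of these 8 markers 5 were called higher with RUNX2 and 0 lower. The other 3 were not called, and the lowest of the 8 changes was log2 -1.93. Macrophage markers (10 genes) summed to 2.42 to 6.36 CPM against 12.8 to 14.2 CPM, with the leukocyte antigen Ptprc at 0 in all 6 libraries. Of the 3 that were tested, Cd68, Mrc1 and Lyz2, 3 were called higher with RUNX2 (log2 1.36 in Cd68 to 3.28 in Lyz2). T and NK cell markers summed to at most 0.309 CPM in these 6 libraries. Endothelial markers (7 genes) summed to 1.12 to 6.82 CPM in OEV and 11.7 to 12.5 CPM in OE Runx2. Of the 4 that were tested 1 was called, the clotting factor carrier Vwf (0.132, 0.738 and 0.4 against 3.9, 2.36 and 2.22 CPM, log2 2.73, SE 0.61). The receptor Kdr, at 0.395, 1.34 and 0.4 against 6.81, 8.74 and 8.61 CPM, made up most of the sum with RUNX2. It was not called (log2 3.51, edgeR QL adjusted p = 0.06), nor was it without OEV replicate 2 (log2 4.34, edgeR QL adjusted p = 0.076). Against OEV replicate 3 alone its change was log2 4.33. With the libraries above 50 CPM of cardiac markers left out, which also leaves OEV replicate 3 as the only control, it was log2 4.32. The cadherin Cdh5 was at 0.395, 1.88 and 0.1 CPM in OEV and at 0 in all 3 OE Runx2 libraries. The part of these other cell types in the results was not tested.

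Of 14661 tested genes, 8928 (60.9%) were called, 4589 (31.3%) higher and 4339 (29.6%) lower with RUNX2. At least 2-fold changes were called for 2513 genes higher (17.1%) and 1664 lower (11.3%). With so many genes called, each gene group below is to be read against these shares and against the median log2 fold change of all tested genes, 0.03. Of the called genes, 342 were at least 32-fold higher and 65 at least 32-fold lower.

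Runx2 itself was at 7.74, 9.3 and 9.28 CPM in the OEV libraries and at 281, 332 and 313 CPM in the OE Runx2 libraries. All 3 OE Runx2 values lay far above the controls (log2 5.14, SE 0.12, edgeR QL adjusted p = 2.7e-10), which checks the labels. The related factor Runx1 also rose, from 5.73, 4.26 and 6.7 to 28.9, 29.4 and 32.6 CPM (log2 2.44, SE 0.17), whereas the values of Runx3 overlapped (5.54, 8.39 and 5.95 against 6.43, 6.89 and 7.63 CPM). Their shared partner Cbfb was at 102, 91.2 and 117 against 128, 142 and 157 CPM, a small shift (log2 0.46, SE 0.11, edgeR QL adjusted p = 0.0033) that was not called with OEV replicate 3 as the only control (log2 0.29, edgeR QL adjusted p = 0.14). Among 22 corepressors and coactivators of RUNX proteins, 6 were higher and 5 lower (median 0.02), and 2 were higher and 4 lower with OEV replicate 3 as the only control (median -0.01). The Groucho-type corepressor Tle2 went from 1.85, 3.56 and 7.38 to 71.1, 64.2 and 54.3 CPM (log2 3.87, SE 0.39). OEV replicate 3 was the highest control for it, and the change was log2 3.1 against that library alone and log2 4.55 without it. Tle1 and the short family member Tle5 fell (log2 -0.53 and -0.96).

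**Figure D1:**
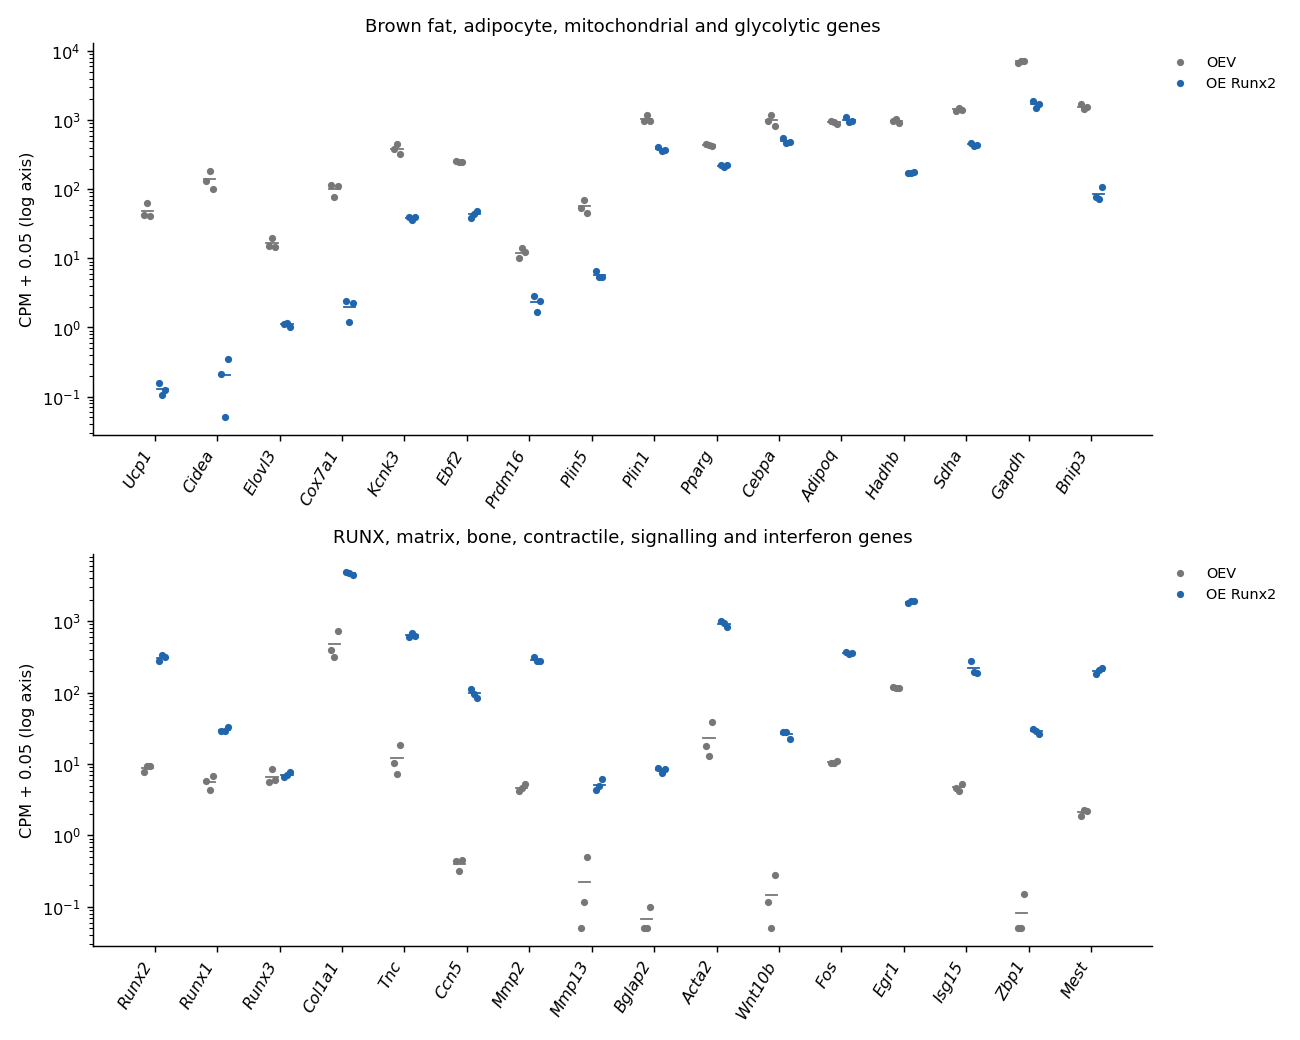
Levels of 32 genes in each library (points, CPM plus 0.05 on a log axis; bars are group means) in OEV (grey) and OE Runx2 (blue) cultures, 3 libraries each. The groups overlap for Runx3 and Adipoq and are separate for the other genes drawn.

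Ucp1, Mmp13, Isg15 and Cxcl10 stand for the main directions, and the 250 bases before their transcription starts are printed to show where simple matches to known binding motifs lie. Ucp1, the heat-producing uncoupling protein, was at 42, 63.2 and 41.2 CPM in OEV and 0.109, 0.0562 and 0.0739 CPM in OE Runx2. Mmp13, a collagenase of bone and cartilage, was at 0, 0.0671 and 0.45 against 4.33, 4.81 and 6.17 CPM. The ubiquitin-like interferon product Isg15 was at 4.61, 4.16 and 5.2 against 277, 193 and 187 CPM, and the chemokine Cxcl10 at 0.791, 1.75 and 1.6 against 79.2, 69.9 and 61.1 CPM. Ucp1 thus lay lower, and the other genes higher, in every OE Runx2 library. The sequences are RefSeq promoters of build GRCm38.p6, read along the gene's strand, with matches to the motifs named for each gene in capitals. Mmp13 is at chr9:7272264-7272513 (plus strand), where the capitals mark a RUNX match (ACCACA, the reverse complement of TGTGGT) and an AP-1 match (TGANTCA). Isg15 is at chr4:156200819-156201068 (minus strand), where they mark 3 overlapping matches to the interferon-response motif (TTTC, any 2 bases and TTTC again, or the reverse complement). The Mmp13 window, marked for RUNX and AP-1 only, also holds interferon-response letters (tttccatttc), left in lower case. Cxcl10 is at chr5:92348890-92349139 (minus strand), where the capitals mark 1 interferon-response and 1 AP-1 match. Ucp1 is at chr8:83290098-83290347 (plus strand) and held none of these letters in this window.
Mmp13: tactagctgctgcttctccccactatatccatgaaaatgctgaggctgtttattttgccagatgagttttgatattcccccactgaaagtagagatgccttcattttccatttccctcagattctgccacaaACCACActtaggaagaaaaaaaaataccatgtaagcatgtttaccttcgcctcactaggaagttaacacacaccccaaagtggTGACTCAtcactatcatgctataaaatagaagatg
Isg15: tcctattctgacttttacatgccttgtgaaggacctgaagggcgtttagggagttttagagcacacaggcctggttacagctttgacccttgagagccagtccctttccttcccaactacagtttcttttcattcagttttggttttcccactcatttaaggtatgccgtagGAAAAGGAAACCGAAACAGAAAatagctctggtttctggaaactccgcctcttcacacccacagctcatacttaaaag
Cxcl10: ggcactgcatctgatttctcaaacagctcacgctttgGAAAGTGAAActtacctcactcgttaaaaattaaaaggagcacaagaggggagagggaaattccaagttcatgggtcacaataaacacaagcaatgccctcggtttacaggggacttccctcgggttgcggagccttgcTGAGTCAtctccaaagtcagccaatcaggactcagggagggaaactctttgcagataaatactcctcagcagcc
Ucp1: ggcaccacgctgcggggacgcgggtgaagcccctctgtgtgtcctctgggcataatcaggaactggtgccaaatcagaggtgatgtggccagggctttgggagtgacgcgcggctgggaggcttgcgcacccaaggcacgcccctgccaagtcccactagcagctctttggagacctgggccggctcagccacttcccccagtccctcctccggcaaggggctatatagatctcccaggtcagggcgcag

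The same motifs were counted on both strands in 14632 RefSeq promoters of 11558 tested genes, all of 250 bases. The RUNX letters were in 10.7% of these promoters, in 11.7% of the 2445 promoters of genes at least 2-fold higher and in 10.3% of the 1654 of genes at least 2-fold lower. They were in 13.7% of the 313 promoters of genes at least 32-fold higher, in 4 of 21 promoters of osteoblast genes (19%), in 5 of 35 of complex I genes (14.3%) and in 0 of 26 of immediate early factors and 0 of 26 of matricellular genes. Interferon-response letters were in 2.65% of all tested promoters, 5.11% of the higher and 1.87% of the lower set, and in 19 of 41 promoters of interferon effector genes. AP-1 letters were in 4.72%, 6.34% and 6.11%, respectively. In the whole RefSeq table of 32851 promoters the shares were 14% for RUNX, 2.98% for interferon-response and 6.75% for AP-1 letters. A match is a description of the letters and was not tested as a binding site.

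The thermogenic machinery fell. Of 16 tested brown fat effector genes 0 were higher and 11 lower (median log2 -2.56), and of 19 regulators 1 was higher and 9 lower (median -1.04). Over the 16 regulators with a mean of at least 5 CPM, 1 was higher and 7 lower (median -0.27). Ucp1 changed by log2 -9.21, SE 0.33 (edgeR QL adjusted p = 2.2e-09). Droplet growth in brown fat involves Cidea, which was at 131, 185 and 102 CPM in OEV and at 0.163, 0 and 0.296 CPM in OE Runx2. One of the OE Runx2 libraries had 0 counts, and leaving out OE Runx2 replicate 3 moved the change from log2 -9.64 to -10.65. The fatty acid elongase Elovl3 went from 15.2, 20 and 14.5 to 1.09, 1.12 and 0.98 CPM, the respiratory subunit isoform Cox7a1 from 114, 76.3 and 113 to 2.4, 1.15 and 2.24 CPM and the potassium channel Kcnk3 from 386, 457 and 323 to 39.1, 36.2 and 39.2 CPM. The largest value with RUNX2 lay below the smallest control for each. Of the regulators, the lineage factor Ebf2 was at 259, 247 and 248 against 38.3, 43.3 and 47.9 CPM (log2 -2.54, SE 0.12) and the coregulator Prdm16 at 10.1, 14 and 12.1 against 2.83, 1.63 and 2.4 CPM (log2 -2.4, SE 0.24). The PGC-1 family split: Ppargc1b fell (log2 -2.21), whereas Ppargc1a overlapped between groups (26, 24.2 and 29.8 against 16.7, 25.2 and 28.1 CPM, log2 -0.19, SE 0.24, edgeR QL adjusted p = 0.51). Zfp423, a preadipocyte factor that restrains the brown program in white fat, was the 1 regulator that rose (log2 0.52).

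Myoglobin (Mb), the oxygen-binding protein of muscle that brown adipocytes also make, was at 660.1, 958 and 435 CPM in OEV and 2.04, 0.45 and 1.48 CPM in OE Runx2 (log2 -8.99, SE 2.09, edgeR QL adjusted p = 0.0097). It is abundant in cardiac muscle too. Cardiac markers summed to 94.3, 369.5 and 1.45 CPM in the 3 OEV libraries and to 2.36 to 3.52 CPM in OE Runx2, and their part in the Mb difference was not tested. Against OEV replicate 3 alone the change was log2 -8.33 and was not called (edgeR QL adjusted p = 0.062). With every library above 50 CPM of cardiac markers left out of all groups, including OE Runx1 replicate 3, it was log2 -8.33 and called (edgeR QL adjusted p = 5.3e-10).

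General adipocyte regulators were mostly lower, while adiponectin was not called. Pparg, the nuclear receptor that directs fat cell formation, was at 446, 436 and 422 against 222, 212 and 225 CPM (log2 -0.98, SE 0.07), and Cebpa, which acts with it, at 966, 1196 and 833 against 546, 461 and 477 CPM (log2 -1.01, SE 0.14). All OE Runx2 values of both lay below all controls. Of 18 adipogenic transcription factors 3 were higher and 11 lower (median -0.49). Cebpb and Klf15, which promote adipogenesis, fell (log2 -1.67 and -1.75), and Gata2, which holds preadipocytes back, rose (log2 2.72), as did Klf4 (log2 1.94). Adipoq, which encodes adiponectin, overlapped between groups at 963, 934 and 886 against 1122, 932 and 964 CPM (log2 0.12, SE 0.1, edgeR QL adjusted p = 0.34). Other secreted factors mostly fell, 10 of 16 lower and 2 higher: the retinol carrier Rbp4 went from 141, 149 and 132 to 7.82, 7.42 and 7.91 CPM (log2 -4.19, SE 0.11), and Itih5 (log2 -4.36), Nampt (log2 -2.13) and the angiogenic Vegfa (log2 -2.06) were lower. The stress cytokine Gdf15 and the lipase regulator Angptl8 were higher (log2 1.49 and 1.91). The fatty acid carrier Fabp4 fell by less (log2 -0.89), as did resistin, Retn (log2 -0.94).

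Genes of lipid storage, breakdown and synthesis were mostly lower. Of 15 genes of the droplet coat 13 were lower and 0 higher (median -1.07). Plin5, the perilipin that ties droplets to mitochondria, was at 54.1, 70.2 and 45.7 against 6.51, 5.37 and 5.27 CPM (log2 -3.31, SE 0.17). Plin1 (log2 -1.47) and Cidec, which enlarges droplets (log2 -1.81), fell less. Of 17 lipolysis genes 13 were lower and 2 higher. The adrenergic receptor Adrb3 fell (log2 -0.86), and inhibitors of lipolysis fell as well: the adenosine receptor Adora1 (log2 -3.84), the lactate receptor Hcar1 (log2 -3.4) and the phosphodiesterase Pde3b (log2 -3.09). Abhd5, the activator of the main triglyceride lipase, was higher (log2 0.41). Of 16 lipogenic genes 11 were lower and 2 higher. The desaturase Scd1 was the most heavily counted of them, at 33147, 28102 and 36943 against 6909, 7249.8 and 8222 CPM (log2 -2.13, SE 0.15). Its relative Scd3 fell more, from 131, 160.2 and 178 to 2.48, 1.83 and 2.33 CPM (log2 -6.14, SE 0.22), and as these genes are near-identical, their separate counts are uncertain. Elovl6, which lengthens saturated fatty acids, rose (log2 1.6). Cholesterol synthesis did not move as a block, with 6 of 24 genes higher, 3 lower and a median of 0.15.

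Nuclear genes of mitochondrial respiration fell together. All 37 tested subunit genes of complex I were lower (0 higher, median -1.0), as were 4 of 4 of complex II, 9 of 9 of complex III, 11 of 11 of complex IV and 12 of 15 of the ATP synthase. In complex I the falls ran from log2 -0.60 to -1.99, the largest in Ndufv3. Sdha, the flavoprotein of complex II, was at 1379, 1517 and 1424 against 475, 421 and 443 CPM (log2 -1.69, SE 0.09). All 20 genes of the TCA cycle and all 20 of branched-chain amino acid breakdown were lower (medians -1.46 and -1.42), the latter led by the dehydrogenase subunit Bckdha (log2 -2.42, SE 0.13). Beta-oxidation had 18 of 20 lower, among them Hadhb, a subunit of the trifunctional protein, at 979, 1040.2 and 910.5 against 170.4, 173 and 179.6 CPM (log2 -2.49, SE 0.1). The exception was Cpt1a, the liver-type gate of mitochondrial fatty acid entry, which rose from 42.6, 45 and 47.2 to 101, 111 and 102 CPM (log2 1.22, SE 0.09). Of 61 mitochondrial ribosome genes 50 were lower and 2 higher (median -0.58). In peroxisomal oxidation 16 of 18 were lower, and the very-long-chain transporter Abcd2 was the 1 gene that rose (3.76, 2.22 and 4.78 against 45.9, 52.8 and 53.2 CPM, log2 3.81, SE 0.22).

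Glycolysis genes and genes known to be induced by hypoxia were mostly lower. Of 21 glycolysis genes 18 were lower and 3 higher (median -2.26), and of 19 hypoxia-induced genes 18 were lower and 0 higher (median -2.08). Glucose phosphate isomerase, Gpi1, went from 3135, 3735 and 3116 to 266, 207 and 256 CPM (log2 -3.77, SE 0.12), and Pgk1 from 3968, 3902 and 3945 to 602, 476 and 596 CPM (log2 -2.82, SE 0.11). The groups were far apart for both. Pdk1, which shuts pyruvate out of mitochondria, fell (log2 -3.89), as did Bnip3, a mitophagy receptor, from 1715, 1451 and 1543 to 78.3, 73.5 and 107 CPM (log2 -4.19, SE 0.15). The oxygen sensor Egln1 and Mxi1, a MYC antagonist, were also lower (log2 -2.33 and -2.43). Bsg, the basigin chaperone of lactate transporters, was at 11970.4, 11978 and 10719 against 1197, 898 and 1029 CPM (log2 -3.47, SE 0.14). Gapdh and Aldoa fell as well (log2 -2.05 and -2.3). Eno2, the neuronal enolase, went the other way, from 1.19, 1.07 and 0.975 to 19.5, 17.8 and 17.8 CPM (log2 4.09, SE 0.38). Of the glucose transporters, the insulin-responsive Slc2a4 and the basal Slc2a1 both fell (log2 -1.84 and -1.54).

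**Figure D2:**
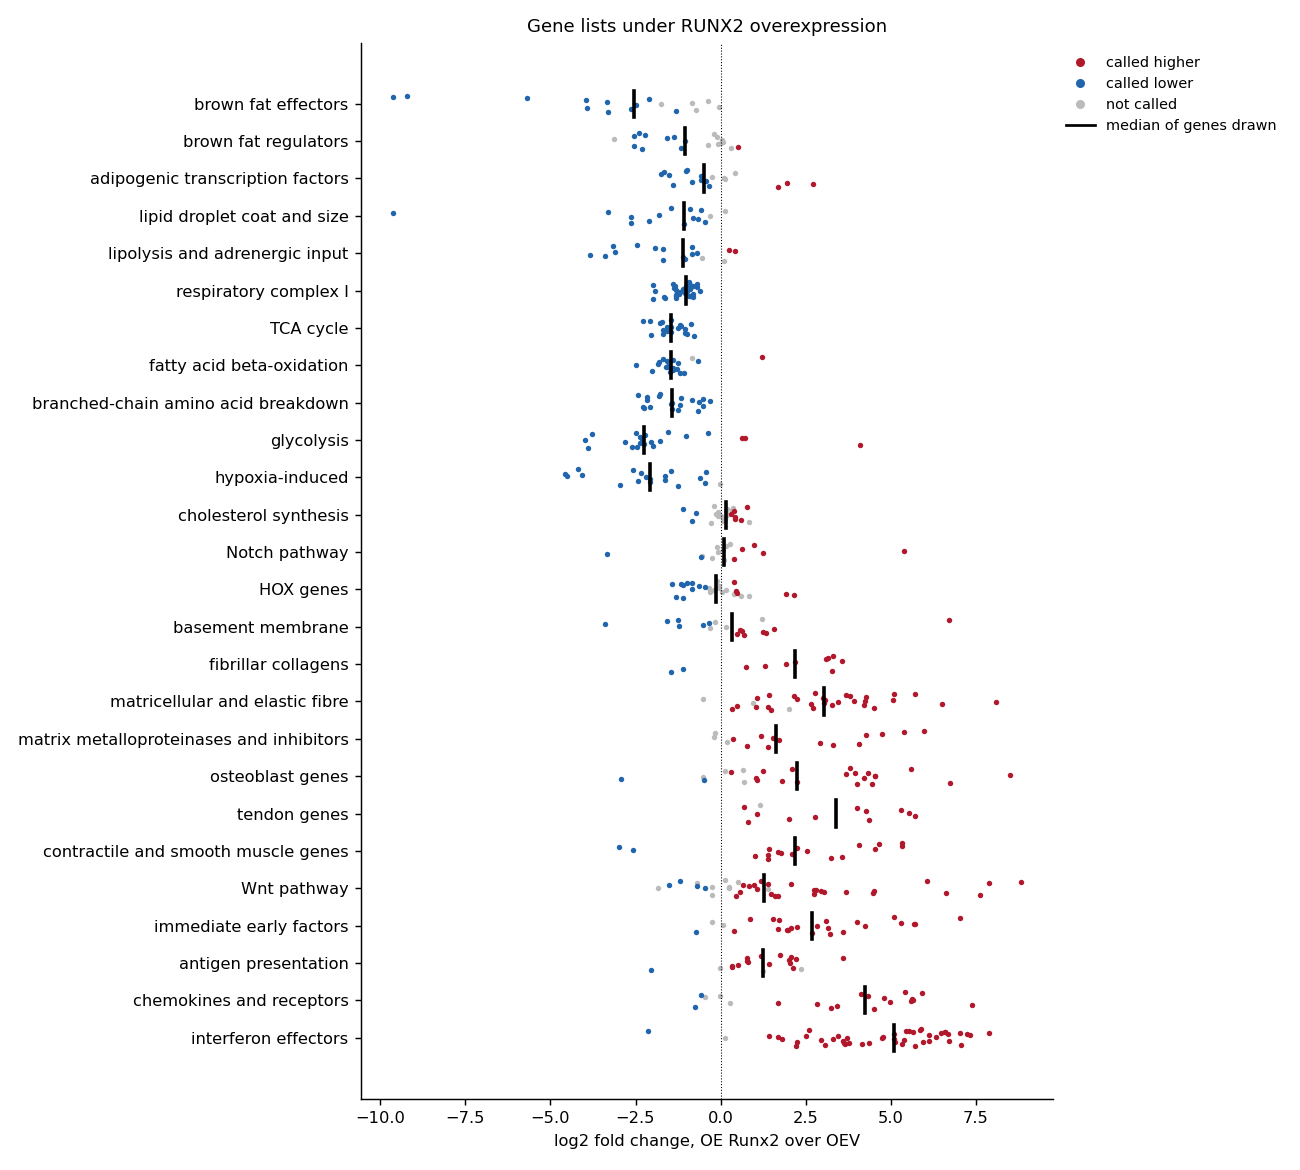
Log2 fold change (OE Runx2 over OEV) of each tested gene in 26 gene lists; red and blue points passed the test, grey points did not, and black bars are medians of the genes drawn. Genes with 0 counts in a group are left out. All complex I and TCA cycle genes lie left of 0, and most matricellular, immediate early and interferon effector genes lie right of it.

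Extracellular matrix genes rose. Of 11 fibrillar collagen genes 9 were higher and 2 lower, of 27 other collagens 18 were higher and 3 lower, and of 32 matricellular and elastic fibre genes 29 were higher and 0 lower (median 3.03). Col1a1 was at 396, 313 and 728 CPM in OEV and 4963, 4770.3 and 4471 CPM in OE Runx2, and Col3a1 at 113, 86.3 and 226 against 1824, 1620.1 and 1645 CPM. OEV replicate 3 was the highest control for both. The changes were log2 3.3 (SE 0.27) and 3.58 (SE 0.32), and log2 2.71 and 2.91 against that library alone. The type VI chains Col6a1 and Col6a2 also rose (log2 1.79, SE 0.11 and log2 2.87, SE 0.18). Col6a5, another type VI chain, had 0 counts in all OEV libraries and 63.4, 78.4 and 66.4 CPM in OE Runx2, at least 2316-fold higher when the controls are set to 3 counts in all. Col27a1, a cartilage collagen, was one of the 2 fibrillar chains that fell (log2 -1.46). Among matrix glycoproteins, Ccn5, a member of the CCN family of signalling proteins, was at 0.395, 0.268 and 0.4 against 114, 94.5 and 85 CPM (log2 8.08, SE 0.22, edgeR QL adjusted p = 4.2e-10). Tenascin-C, Tnc, was at 10.3, 7.32 and 18.6 against 596, 693 and 614 CPM (log2 5.7, SE 0.3; log2 5.1 against OEV replicate 3 alone), and thrombospondin Thbs1 at 152, 105 and 282 against 2194, 2471 and 2289.8 CPM (log2 3.69, SE 0.32; log2 3.04). Fibronectin, Fn1, rose (log2 2.76).

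Most enzymes that process and cut the matrix were higher. Of 16 metalloproteinases and their inhibitors 13 were higher and 0 lower (median 1.63, or 2.9 over the 9 with a mean of at least 5 CPM). The gelatinase Mmp2 was at 4.09, 4.5 and 5.2 against 319.7, 273 and 274 CPM (log2 5.97, SE 0.15), and its membrane activator Mmp14 at 76.6, 68 and 95.2 against 1653, 1522 and 1499 CPM (log2 4.28, SE 0.17). The inhibitors Timp2 and Timp3 rose as well (log2 4.07 and 3.31). Mmp13 was low in all libraries (log2 4.75, SE 0.74), and OEV replicate 3 was its highest control, so that the change was log2 3.5 against that library alone and 7.13 without it. Of 22 collagen processing genes 16 were higher and 5 lower: the cross-linking Loxl3 and the procollagen enhancer Pcolce rose (log2 3.8 and 3.24), as did the prolyl hydroxylase P3h1 (log2 0.38; not called against OEV replicate 3 alone, log2 0.32, or without OEV replicate 1, log2 0.34). The prolyl and lysyl hydroxylases P4ha1 and Plod1 fell (log2 -1.45 and -1.47), and so did the cross-linking Loxl2 (log2 -0.31), whose call was lost in 5 of the 6 fits with 1 library left out (log2 -0.13 without OEV replicate 3). Of 12 small leucine-rich proteoglycans 6 rose, including fibromodulin, Fmod (log2 5.52), and biglycan, Bgn (log2 3.39), and 1 fell, Prelp (107, 144 and 131 against 46.4, 47.1 and 46.3 CPM). The 18 basement membrane genes were mixed, 8 higher and 6 lower. Their median was 0.32, or -0.03 with OEV replicate 3 as the only control and -0.18 over the 15 with a mean of at least 5 CPM. Lamb3 fell from 45, 60.9 and 43.8 to 5.31, 4.53 and 4.27 CPM (log2 -3.41, SE 0.16).

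Most genes of bone, cartilage and tendon were higher. Of 25 osteoblast genes 19 were higher and 2 lower (median 2.25; 8 of 11 higher, median 1.07, over those with a mean of at least 5 CPM), of 18 cartilage genes 11 and 2, and of 12 tendon genes 11 and 0. Osteocalcin 2, Bglap2, was at 0, 0 and 0.05 CPM in OEV and 8.86, 7.56 and 8.58 CPM in OE Runx2. Only OEV replicate 3 had any counts, and the change of log2 8.5 (SE 0.52) was 7.3 against that library alone and 11.33 without it. Sp7, the osteoblast factor downstream of RUNX2, was at 0.264, 0.0671 and 0.4 against 4.25, 3.43 and 3.14 CPM (log2 3.81, SE 0.38; log2 3.16 against OEV replicate 3 alone, 4.42 without it). Osteopontin, Spp1, rose from 4.55, 3.22 and 8.8 to 88.8, 84.9 and 86.6 CPM (log2 3.95, SE 0.3; log2 3.31 against OEV replicate 3 alone). The mineralising phosphatase Alpl was already high in OEV, 74.7, 87.5 and 87.6 against 113, 103 and 95.6 CPM, and its small change (log2 0.32) was not called without OEV replicate 1, OE Runx2 replicate 1 or OE Runx2 replicate 2, in turn (log2 0.25, 0.25 and 0.33), nor against OEV replicate 3 alone (log2 0.25). Phospho1, a phosphatase of matrix vesicles that is also made in brown fat, fell from 40.3, 48.5 and 35.1 to 5.18, 6.24 and 4.92 CPM (log2 -2.93, SE 0.16). The cartilage matrix gene Matn3 and the chondrocyte factor Sox9 rose (log2 6.58 and 2.27).

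Contractile genes rose in 16 of 18 cases. Smooth muscle actin, Acta2, was at 18, 13 and 38.4 CPM in OEV and 1022, 943 and 819 CPM in OE Runx2, with OEV replicate 3 the highest control. The change was log2 5.32, SE 0.41, or log2 4.6 against that library alone and 5.91 without it. The myosin light chain Myl9 was at 2.04, 2.28 and 2.73 against 112, 94.1 and 78.7 CPM (log2 5.32, SE 0.21). Smooth muscle myosin Myh11 and desmin, Des, were the 2 that fell, Myh11 from 12.3, 10.9 and 8.8 to 1.5, 1.07 and 1.5 CPM (log2 -2.97, SE 0.25). Des, which cardiac muscle also expresses, was at 67.1, 82.7 and 49 against 13.2, 10.1 and 9.98 CPM (log2 -2.58, SE 0.53), and its change was log2 -2.14 and not called against OEV replicate 3 alone (edgeR QL adjusted p = 0.054). Of 16 targets of YAP and SRF 13 were higher and 2 lower, led by Ccn1 (51.9, 32.9 and 76.6 against 1952, 1770.2 and 1677 CPM, log2 5.06, SE 0.3), and Srf itself rose (log2 2.44). Of 19 stromal progenitor markers 14 were higher and 2 lower. The receptors Pdgfrb and Pdgfra rose by different amounts (log2 3.18 and 1.44), and dermatopontin, Dpt, was at 1.05, 1.95 and 3.1 against 45.9, 42.1 and 39.2 CPM (log2 4.35, SE 0.28). The ectonucleotidase Nt5e fell (log2 -2.53).

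Developmental signalling genes changed on the side of ligands, receptors and inhibitors alike. In the Wnt pathway 27 of 40 genes were higher and 4 lower (median 1.39). Wnt10b, a ligand that favours bone over fat, was at 0.0659, 0 and 0.225 CPM in OEV and 28.4, 27.7 and 22.7 CPM in OE Runx2. All 3 controls were below 0.5 CPM, and the change was log2 7.87, SE 0.35 (log2 6.85 against OEV replicate 3 alone, 9.5 without it). Wnt7b was at 0, 0.0671 and 0 against 11.3, 11 and 9.61 CPM, with counts in OEV replicate 2 only, so its fitted change of log2 8.84 was 11.73 without that library and 8.19 without OEV replicate 3. The nuclear effector Lef1 and the feedback inhibitor Nkd2 rose (log2 3.03 and 6.63, the latter 7.31 against OEV replicate 3 alone), while the receptor Fzd4 and Wnt5a fell (log2 -1.53 and -1.18). In the BMP pathway 16 of 25 were higher and 4 lower. The ligand Gdf6 had 0 counts in all OEV libraries and 12.1, 16.1 and 14.5 CPM in OE Runx2 (at least 475-fold higher), and the BMP antagonist Grem1 was at 0, 0.201 and 0.225 against 15.1, 20.7 and 18.4 CPM (log2 6.9, SE 0.48; log2 6.31 against OEV replicate 3 alone). The antagonist Chrdl1 and the target Id2 fell (log2 -2.28 and -1.53).

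The TGF-beta and activin list had 17 of 29 genes higher and 6 lower, with the activin subunit Inhba at 0.923, 0.805 and 1.05 against 16.7, 22.4 and 20.3 CPM (log2 4.41, SE 0.18). Fstl3, an activin antagonist, fell (log2 -3.03). In the FGF and MAPK feedback list 14 of 24 were higher and 5 lower, with Spry1 and Etv4 higher (log2 2.94 and 3.71) and Etv5 and Dusp4 lower (log2 -0.94 and -0.87). Hedgehog genes were higher in 8 of 11 cases and lower in 1. The coreceptors of that pathway differed: Boc and Gas1 rose (log2 4.09 and 2.3) and Cdon fell (log2 -0.82). Notch genes showed 5 of 15 higher and 2 lower (median 0.09, or 0.34 over the 8 with a mean of at least 5 CPM).

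Immediate early transcription factors, which growth signals induce within minutes, were higher in 23 of 26 cases and lower in 1 (median 2.76). Fos was at 10.1, 10.3 and 11.2 CPM in OEV and 365, 343 and 363 CPM in OE Runx2, Fosb at 0.923, 1.54 and 1.6 against 192, 171 and 178 CPM, and Egr1 at 119, 116 and 115 against 1823, 1914 and 1899 CPM. The libraries of each group lay close to each other and far from the other group (log2 5.08, SE 0.11; log2 7.04, SE 0.18; log2 4.01, SE 0.1). Egr2 and the orphan nuclear receptor Nr4a1 rose in the same way, Nr4a1 from 8.7, 14.6 and 11.6 to 708, 563 and 551 CPM (log2 5.29 and 5.7). The gene that fell was Maff, a small partner of AP-1 factors (log2 -0.72), which was not called against OEV replicate 3 alone (log2 -0.42, edgeR QL adjusted p = 0.071).

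Interferon genes rose from sensing to effect. Of 19 sensors and adaptors 15 were higher and 1 lower. The nucleic acid sensor Zbp1 was at 0, 0 and 0.1 CPM in OEV and 30.9, 29.1 and 26.5 CPM in OE Runx2, with counts in OEV replicate 3 only (log2 9.39, SE 0.43; log2 8.13 against that library alone and 13.12 without it). The RNA sensors Ifih1 and Dhx58 rose (log2 3.5 and 4.02), and their adaptor Mavs fell (log2 -0.96). Interferon ligands were scarce and receptors changed in both directions. Of 5 tested ligands and receptors 3 were higher and 1 lower. The ligand Ifna4, which belongs to a family of near-identical copies, so that its reads are uncertain, was at 0 in all OEV libraries and at 0.545, 0.45 and 0.314 CPM in OE Runx2 (53 counts in all) and was called higher (edgeR QL adjusted p = 0.002, or 0.054 against OEV replicate 3 alone). The interferon gamma receptor chain Ifngr2 rose and the chain Ifngr1 fell (log2 0.32 and -0.83), the rise of Ifngr2 not called without OEV replicate 2 or OE Runx2 replicate 2, or against OEV replicate 3 alone (log2 0.25, 0.27 and 0.25). Ifnb1, interferon beta, had 0 counts over the OEV libraries and 26 counts over the OE Runx2 libraries, and did not reach the minimum for testing. Of 14 signalling factors 10 were higher and 1 lower. The signal transducer Stat2 went from 28, 29.6 and 27.8 to 262, 267 and 239 CPM (log2 3.17, SE 0.11). The amplifier Irf7 was at 6.06, 6.65 and 6.55 against 174, 135 and 127 CPM (log2 4.5, SE 0.2), and the negative regulator Usp18 at 1.38, 1.48 and 1.3 against 146, 125 and 116 CPM (log2 6.54, SE 0.2).

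Of 47 interferon effectors 45 were called higher, each by at least 2-fold, and 1 lower (median 5.09). Isg15 (log2 5.55, SE 0.22) and Rtp4 (log2 5.39, SE 0.13, 4.68, 5.44 and 6.48 against 249, 228 and 223 CPM) were among them, and the GTPase Igtp was at 4.98, 4.56 and 4.5 against 87, 83.7 and 78.5 CPM (log2 4.15, SE 0.11). Isg20, an exonuclease, was the 1 that fell, from 31.1, 31.6 and 26.2 to 8.04, 6.35 and 5.71 CPM (log2 -2.15, SE 0.17). Antigen presentation genes were higher in 15 of 19 cases. The class I light chain B2m was at 505, 383 and 486 against 2171, 2088 and 2181 CPM (log2 2.23, SE 0.12), and H2-K1 and the peptide transporter Tap1 rose (log2 1.2 and 2.02). The class II chaperone Cd74 was lower (log2 -2.05). Chemokines and their receptors were higher in 17 of 22 cases and lower in 2. Cxcl10 changed by log2 5.65, SE 0.24, Ccl5 was at 0.132, 0.671 and 0.55 against 32.9, 26.3 and 24.3 CPM (log2 5.92, SE 0.36) and Ccl2 at 0.988, 0.973 and 1.58 against 56.5, 53.3 and 45 CPM (log2 5.42, SE 0.24). Complement had 9 of 15 higher and 2 lower: the protease C1ra and C4b rose (log2 4.72 and 3.3) and the central component C3 fell (log2 -0.78). Among 28 NF-kB and cytokine genes 21 were higher and 2 lower. The growth factor Csf1 and the prostaglandin synthase Ptgs2 rose (log2 2.6 and 3.63), and lipocalin Lcn2 fell (log2 -3.27). Macrophage markers were low in both groups and higher with RUNX2, as given above, and their part in these changes was not tested.

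Stress and cell cycle genes gave mixed counts. The integrated stress and unfolded protein response list had 3 of 27 higher and 13 lower, with Aldh1l2, a mitochondrial folate enzyme, lower (log2 -2.16), as were Trib3 and the chaperone Hspa5 (log2 -1.82 and -0.89). Of 20 targets of p53 12 were higher and 3 lower. The apoptosis gene Pmaip1 was at 1.05, 1.07 and 1.75 against 19.8, 22.7 and 20.9 CPM (log2 4.01, SE 0.23), but the cell cycle inhibitor Cdkn1a was lower (log2 -0.64). Mitosis and replication genes were higher in 23 of 35 cases and lower in 4 (median 0.49), with cyclin Ccnd1 and Foxm1 higher (log2 2.36 and 1.34). Of the inhibitors Cdkn2b rose and Rb1 fell (log2 2.11 and -1.15). FOXO and nutrient stress genes were lower in 11 of 18 cases. Depp1, a FOXO target that promotes autophagy, was at 30.2, 33.8 and 20.2 CPM in OEV and had 0 counts in all OE Runx2 libraries, at least 1181-fold lower.

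Single genes outside these programs also rose. Mest, an imprinted gene of mesoderm and of growing fat tissue, was at 1.81, 2.25 and 2.13 CPM in OEV and 181, 205 and 219 CPM in OE Runx2 (log2 6.61, SE 0.16). The lysosomal glycoprotein Gpnmb was at 7.18, 5.71 and 8.28 against 571, 495 and 502 CPM (log2 6.2, SE 0.17). Enpp2, which encodes autotaxin, the enzyme that makes lysophosphatidic acid, rose from 62.1, 57.8 and 62 to 360.2, 385 and 355 CPM (log2 2.6, SE 0.12). Its receptor Lpar1 rose as well (2.9, 2.28 and 6.8 against 31, 32.3 and 34.3 CPM, log2 3.0, SE 0.32; log2 2.26 against OEV replicate 3 alone, 3.66 without it). Of the HOX genes 5 of 26 were higher and 10 lower, with Hoxa5 lower (log2 -1.43).

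The control libraries were then exchanged to see what rests on OEV replicates 1 and 2. With OEV replicate 3 as the only control the spread of OEV was taken from the other groups, and 6370 genes were called instead of 8928. Of the 8928, 6246 (69.96%) were called in both fits, and 0 of these changed direction. Of the 173 called genes whose levels or changes are given here, 165 were still called and 173 kept their direction, with a median shift of 0.168 log2 units and a 95th percentile of 0.695. Both fits used the same OE Runx2 libraries and OEV replicate 3, so the kept directions are not independent support. In 125 of the 173 the change was smaller against OEV replicate 3 alone. In this fit most interferon effectors and immediate early factors were still higher, and most complex I genes and brown fat effectors were still lower. The mitochondrial ribosome list and the mitosis and replication list had fewer calls, as did the tested genes as a whole. The medians of fibrillar collagens and stromal progenitor markers were lower in this fit (1.77 and 1.65, from 2.19 and 2.39).

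**Figure D3:**
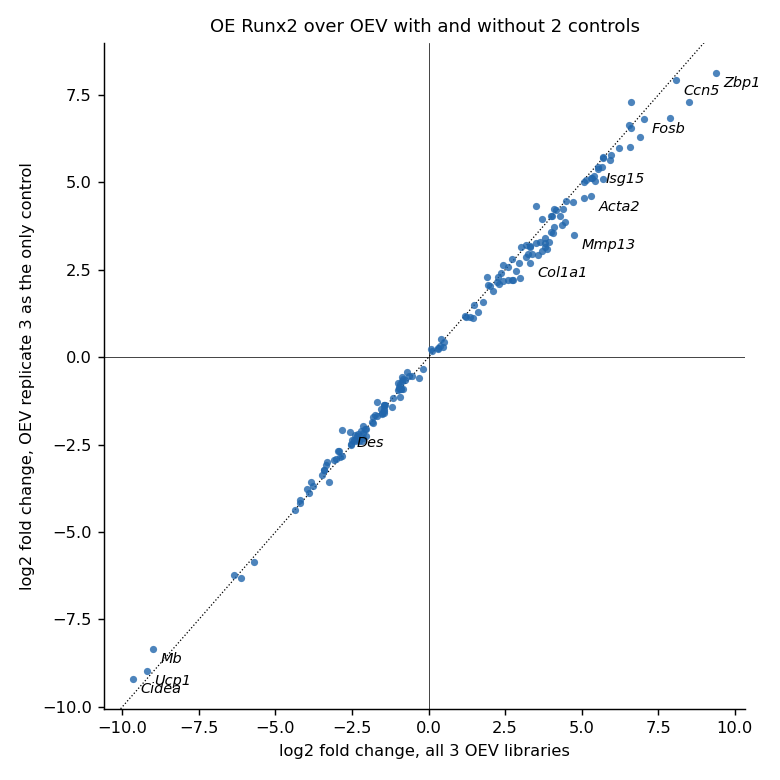
Log2 fold change of the genes named in the text with all 3 OEV libraries (horizontal) and with OEV replicate 3 as the only control (vertical); the dotted line marks equal values. Genes with 0 counts in a group or in OEV replicate 3 are left out. The called genes keep their side of 0, and Acta2, Col1a1 and Mmp13 lie below the line.

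RUNX2 and RUNX1 were compared directly, since OE Runx2 and OE Runx1 lie in the same table. Of 14661 genes 5845 (39.9%) were called, 2767 (18.9%) higher with RUNX2 and 3078 (21%) lower. Without OE Runx2 replicate 2 there were 3912 calls, 1989 of them lower, and without OE Runx1 replicate 3, the library with the cardiac transcripts, there were 6793. The factors were not expressed to the same degree: OE Runx1 libraries had 66.9, 68.8 and 85.9 CPM of Runx1 and 17.1, 15.3 and 18 CPM of Runx2. Dose and identity of the factor cannot be told apart here.

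Of 26 immediate early factors 22 were higher with RUNX2 and 0 lower, and of 47 interferon effectors 43 were higher and 2 lower. Matricellular genes were higher with RUNX2 in 20 of 32 cases and lower in 2. All 37 complex I genes and all 20 TCA cycle genes were lower with RUNX2 than with RUNX1. The osteoblast list had 5 of 25 genes higher, 7 lower and 13 not called (median -0.21). These shares are not far from those over all tested genes, 18.9% higher and 21% lower. The contractile list had 2 of 18 higher and 6 lower (median -0.10). Fos was at 8.12, 8.15 and 6.58 CPM with RUNX1, below the values with RUNX2 given above by log2 5.55, SE 0.11 (edgeR QL adjusted p = 2.8e-10), and Fosb was at 3.81, 3.27 and 3.02 CPM (log2 5.74, SE 0.16). The RUNX1 libraries of Fos lay below the OEV libraries. Cadherin 11, Cdh11, a marker of osteoblast-lineage mesenchyme, was at 0.857, 0.537 and 1.5 CPM in OEV, 0.597, 0.354 and 0.749 CPM with RUNX1 and 17.6, 24.3 and 23.3 CPM with RUNX2 (log2 5.26, SE 0.37). Grem1 was at 0.528, 0.608 and 0.454 CPM with RUNX1 (log2 5.08, SE 0.41), and the nuclear body protein Sp100 at 0.964, 0.987 and 1.5 CPM with RUNX1 and 33.9, 34.6 and 32.2 CPM with RUNX2 (log2 4.87, SE 0.18). Col3a1, at 314, 286 and 274 CPM with RUNX1, and Mmp2, at 21.1, 17.9 and 16.6 CPM, were also higher with RUNX2 (log2 2.54, SE 0.3; log2 3.96, SE 0.13). Isg15 and Mest stood between OEV and RUNX2 in the RUNX1 libraries (61.5, 52.5 and 39.8 and 50.3, 62.3 and 68.5 CPM), and both were higher with RUNX2 (log2 2.09 and 1.74). Enpp2 differed as well, at 71, 61 and 85.3 CPM with RUNX1 (log2 2.34, SE 0.12).

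Other genes were higher with RUNX1. Sp7 was at 13.8, 14.3 and 11.7 CPM with RUNX1 (log2 -1.88, SE 0.3 for RUNX2 over RUNX1) and Alpl at 265, 244 and 209.5 CPM (log2 -1.21, SE 0.11), so these bone genes stood above their RUNX2 values in every library. The adipokine resistin, Retn, was at 218, 255 and 179 CPM with RUNX1, above OEV, and at 55.9, 46.8 and 54.9 CPM with RUNX2, below it (log2 -2.05, SE 0.15). Prelp had the same order (152, 171 and 171 CPM with RUNX1, log2 -1.82, SE 0.11). Ces1d, a carboxylesterase of adipocyte lipid turnover, was at 11.9, 14.8 and 19.6 CPM with RUNX1 and 0.381, 0.787 and 0.591 CPM with RUNX2 (log2 -4.71, SE 0.39). Ucp1 and Cidea were low with both factors and lower with RUNX2 (0.321, 0.481 and 0.642 and 3.17, 3.77 and 5.24 CPM with RUNX1; log2 -2.54 and -4.53, the latter -5.55 without OE Runx2 replicate 3). For other genes no difference was called: Acta2 at 1086, 1089.7 and 765 CPM with RUNX1 (log2 -0.08, SE 0.34, edgeR QL adjusted p = 0.87), Col6a2 (log2 0.22, SE 0.16, edgeR QL adjusted p = 0.31) and Tnc (log2 -0.52, SE 0.25, edgeR QL adjusted p = 0.12). The SE of Acta2 leaves room for a difference of either sign.

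**Figure D4:**
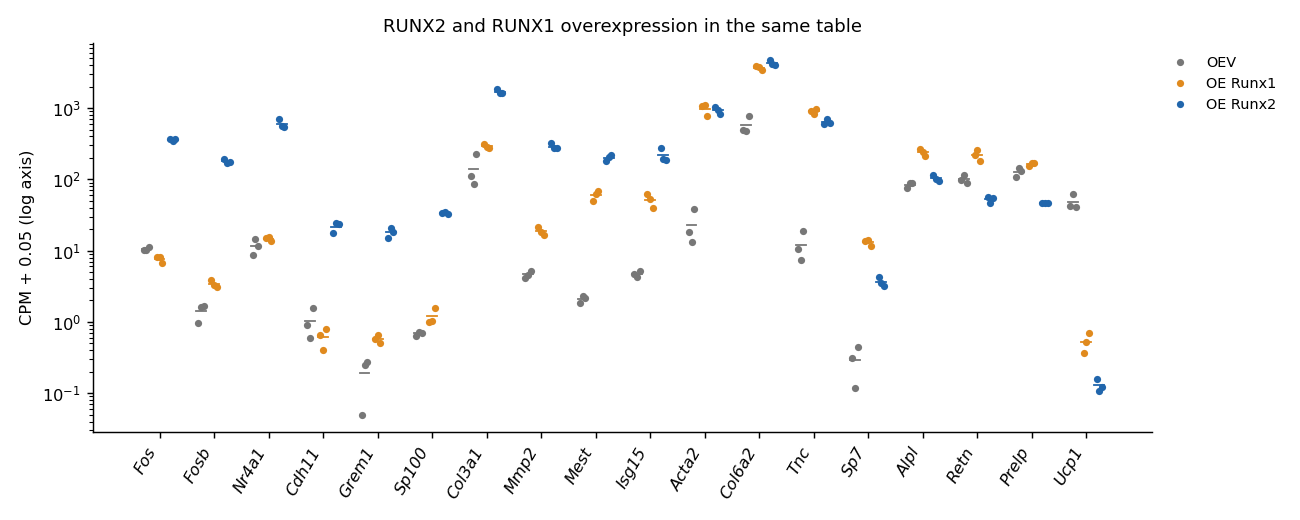
Levels of 18 genes in each library (points, CPM plus 0.05 on a log axis; bars are group means) in OEV (grey), OE Runx1 (orange) and OE Runx2 (blue) cultures, 3 libraries each. Fos, Fosb, Nr4a1, Cdh11, Grem1 and Sp100 lie far above both other groups with RUNX2, while Sp7, Alpl, Retn and Prelp are higher with RUNX1.

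A separate table of the same line held full length Runx2 and a form labelled as lacking the IDR, with 2 libraries each and no control without added Runx2. Its values were scaled apart from those above, so levels are compared only within it. Runx2 was at 293 and 294 CPM with the full length form and 115 and 143 CPM with the deletion (log2 1.19, SE 0.08). A gene-level count covers both forms, so a lower level of the transcript and the missing stretch cannot be told apart. Of 13110 tested genes 512 (3.91%) were called, 314 (2.4%) higher with the full length form and 198 (1.51%) lower. The count rests on single libraries, with 242 calls without Full length Runx2 replicate 2, 269 without delete Runx2 IDR replicate 1 and 1214 without delete Runx2 IDR replicate 2.

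Genes that rose under overexpression were among those higher with the full length form. Mest was at 23.7 and 26.6 against 4.71 and 3.88 CPM (log2 2.55, SE 0.15), Ccn5 at 14.9 and 20.8 against 1.91 and 1.75 CPM (log2 3.28, SE 0.2) and Tnc at 21.3 and 27.7 against 4.31 and 5.42 CPM (log2 2.33, SE 0.16). In each the 2 full length libraries lay above both others. Mmp13 was at 1.24 and 1.29 against 0 and 0.12 CPM, with counts in 1 deletion library only (log2 4.3, SE 0.78; log2 8.41 without delete Runx2 IDR replicate 2 and 3.35 without delete Runx2 IDR replicate 1). Runx1 was also higher (8.38 and 8.04 against 3.39 and 4.31 CPM, log2 1.09, SE 0.2), as were Egr1 and Thbs1 (log2 0.84 and 0.66). Lower with the full length form were Ucp1 (7.34 and 3.64 against 13.6 and 11.3 CPM, log2 -1.18, SE 0.25; log2 -1.77 without Full length Runx2 replicate 1), Mb (189 and 159 against 297 and 283 CPM, log2 -0.74, SE 0.08), Plin5 (log2 -0.61, SE 0.11), P4ha1 (log2 -0.83, SE 0.1) and Gapdh (log2 -0.58, SE 0.09). Cardiac markers summed to 0.739 and 0.799 CPM in the full length libraries and to 1.37 and 0.872 CPM in the deletion libraries, and their part in the Mb difference was not tested. Isg15 (5.81 and 7.45 against 6.65 and 5.66 CPM, log2 0.11, SE 0.19, edgeR QL adjusted p = 0.87), Acta2 (log2 0.23) and Pparg (log2 -0.05) were not called. Nt5e ran the other way from the overexpression table, higher with the full length form (log2 0.81), a call lost without Full length Runx2 replicate 2 (log2 0.66) or delete Runx2 IDR replicate 1 (log2 0.65).

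Across genes, 1756 of the 2513 genes that overexpression raised at least 2-fold were tested in this table, and 128 of them (7.29%) were called higher with the full length form and 13 (0.74%) lower. Those 128 are 41.0% of the 312 genes called higher among the 13025 tested in both tables. Of all these 13025 genes, 2.4% were called higher with the full length form and 1.52% lower. Of the 1570 tested genes that overexpression lowered at least 2-fold, 106 (6.75%) were called lower with the full length form and 36 (2.29%) higher, and the 106 are 53.5% of the 198 called lower. Most genes changed by overexpression were not called between the 2 forms. With only 312 and 198 of the 13025 genes called higher and lower, this had to be so and is no result about the deletion.

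**Figure D5:**
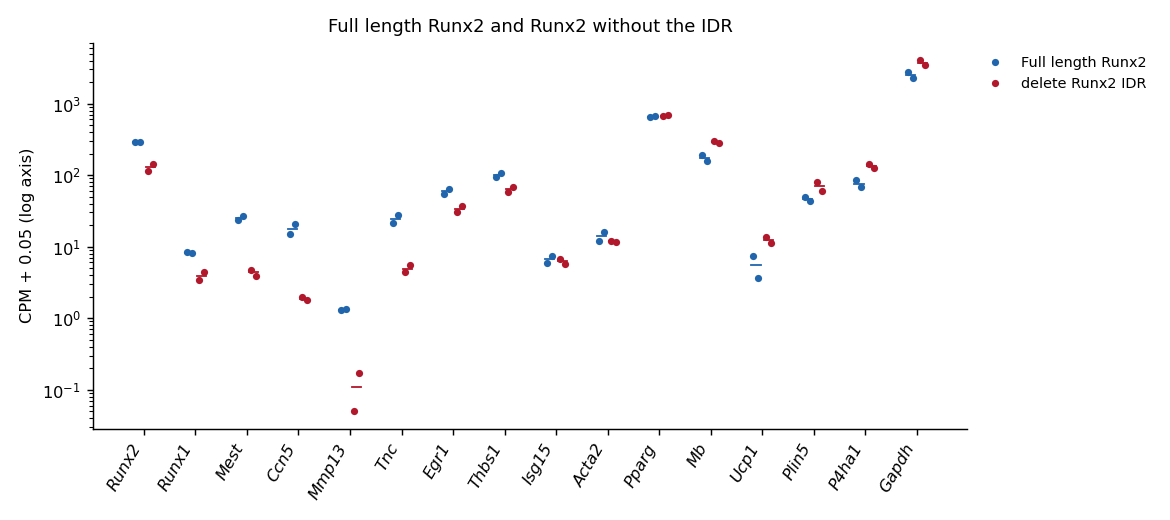
Levels of 16 genes in each library (points, CPM plus 0.05 on a log axis; bars are group means) with full length Runx2 (blue) and the form labelled as lacking the IDR (red), 2 libraries each. Runx2, Mest, Ccn5, Mmp13 and Tnc are higher with the full length form, and Mb, Ucp1, Plin5, P4ha1 and Gapdh are lower.

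In the knockout table Runx2 was at 6.82, 7.13 and 9.18 CPM in Knock out control and 8.68, 6.83 and 7.32 CPM in Knock out Runx2. The groups overlapped (log2 -0.02, SE 0.18), so the transcript count does not check the label. Of 13551 tested genes 25 (0.184%) were called, 24 (0.177%) higher and 1 (0.00738%) lower in the libraries labelled Knock out Runx2. The 1 lower gene was Enpp2, at 189.5, 173 and 159.8 CPM in Knock out control and 99.6, 110.4 and 101 CPM in the libraries labelled Knock out Runx2 (log2 -0.75, SE 0.1, edgeR QL adjusted p = 0.018), which overexpression had raised. Of the 24 higher genes, overexpression had lowered 11 (45.8%) at least 2-fold and raised 8 (33.3%) at least 2-fold. The 11 are 0.664% of the lowered genes tested here and the 8 are 0.433% of the raised ones. Of all genes tested in both tables, 0.179% were called higher. Among those lowered by overexpression were Mpzl2 and Steap4 (log2 -6.34 and -2.88 there, 0.92 and 0.78 here). Sp100, Igtp and Dpt, which overexpression had raised, were higher as well in the libraries labelled Knock out Runx2 (log2 2.09, 1.11 and 1.82). Of 16 tested brown fat effectors 2 were called higher, the fatty acid binding protein Fabp3 and the proton channel Otop1 (log2 1.71 and 1.52), neither of which was called under overexpression. Ucp1 was at 9.63, 21.2 and 22 against 52.7, 45 and 47 CPM and was not called (log2 1.45, SE 0.3, edgeR QL adjusted p = 0.09). Leaving out 1 of the 6 libraries in turn left 0 to 9 genes called, and Igtp, Mpzl2 and Fabp3 lost their calls in 6 of 6 such fits and Enpp2, Sp100, Dpt, Steap4 and Otop1 theirs in 5 of 6 each.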

How the data were processed

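PolyA RNA of cultured brown adipocytes was sequenced. The authors deposited whole-number read counts per gene symbol (26264 genes), and the submitters' processing notes name fastp, STAR, featureCounts and the mm39 build, with versions not given in the sources used here. Among counts of 1 to 19, 72.3% to 76.8% were even in the 9 overexpression libraries, so many counts may stand for fewer fragments. Whether this affects the estimated spread was not tested.

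Groups follow the sample labels and columns follow their names. Genes were filtered with filterByExpr and scaled by TMM, and edgeR 4.0.16 quasi-likelihood tests (robust, R 4.3.3) were run on each whole table with Benjamini-Hochberg adjustment. DESeq2 1.42.0 was an alternative. The fit was tested on simulated data. For OE Runx2 against OEV, 50 of 14661 genes were changed by each fold of 1.5, 2, 4 and 8, and the rest had equal means. It recovered 36% of genes changed 1.5-fold, 66% at 2-fold and 82% at 4-fold, and 5.56% of its calls were false. In the real comparison 60.9% of genes were called and the controls differed among themselves, so these rates may not hold there. The labels do not say what same-numbered libraries share, and the main fit did not pair them. The members and gene lists were chosen with earlier results of these data known. Named genes come from a rule: a panel of genes, the 8 called genes highest and 8 lowest by fold change and by change in level, from each list at most 4 members with the smallest adjusted p in its main direction and 2 in the other, the 6 highest and 6 lowest against OE Runx1, and genes at 0 in 1 group, each limited to a mean of at least 5 CPM where picked by size. The text gives a part of these, chosen after their values were seen, and adds Cox7a1, Kdr, Cdh5, Loxl2, P3h1, Steap4, Fabp3 and Otop1. The same genes were then read in the other comparisons. Promoters come from RefSeq tables of build GRCm38.p6, another build than the counts, and were matched by symbol. Results for some genes are not reported here.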

Additional observations from a re-analysis of the deposited data

How the results depend on the processing

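For OE Runx2 against OEV the count of called genes was 8928, and 7841 to 8559 with 1 library left out in turn. It was 6370 with OEV replicate 3 as the only control, 8198 without libraries above 50 CPM of cardiac markers and 8633 with the cardiac sum as a covariate. Of the 4177 genes called at least 2-fold, 0 changed sign under the 14 alternatives run. Genes not called changed sign with 1 library left out: Runx3 ranged from -0.034 to 0.30, Ppargc1a from -0.35 to 0.0020, Acta2 against OE Runx1 from -0.23 to 0.023, Isg15 between full length and deletion from -0.082 to 0.28, and Runx2 in the knockout table from -0.12 to 0.13. Genes lower with RUNX2 than RUNX1 ranged from 1989 (without OE Runx2 replicate 2) to 3479 (without OE Runx1 replicate 3). Full length against deletion gave 242 to 1214 called, 162 to 744 higher and 80 to 470 lower with 1 library left out, and 128 lower by the DESeq2 test. Knock out Runx2 gave 0 to 9 called, 0 to 8 higher and 0 to 1 lower with 1 library left out. The DESeq2 test called 160 there, 123 higher and 37 lower, and a fit of those 2 groups alone called 105, 82 higher and 23 lower. With replicate number as a block, 12 were called there, 12 higher and 0 lower. What same-numbered libraries share is not stated, and the replicate block gave 8912 calls for OE Runx2 against OEV, 5723 against OE Runx1 and 707 for full length against deletion. The cause of these shifts was not tested.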
